A study of Mus musculus with 2 samples.

Results

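The mevalonate and sterol pathway, with the proteins that set its activity, was followed as 26 genes of the 19046 measured in mouse skin. The genes were taken by name from knowledge of the pathway, with earlier results of these data known, and all 26 were detected. They comprised 6 enzymes that build isopentenyl units from acetyl-CoA, 2 enzymes of prenyl diphosphate synthesis, 3 enzymes that lead from farnesyl diphosphate to lanosterol, 9 enzymes of the route from lanosterol to cholesterol, 5 regulators of the SREBP system and 1 sterol carrier. Single-cell RNA sequencing with gene probes on fixed cells had been performed on dorsal skin of 1 wildtype mouse of the strain C57BL/6J and of 1 Eppk1-/- animal whose line had been backcrossed to that strain. The mice were untreated. Eppk1 encodes epiplakin, a cytolinker of the plakin family that is abundant in epithelia, and how the allele was made was not given in the sources used here. Each genotype was thus a single library of 1 animal, so that a difference between the libraries cannot be told apart from a difference between 2 mice, and no test between genotypes was possible. Age was not given either.

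Cells make cholesterol from acetyl-CoA through mevalonate, isoprenoid units, squalene and lanosterol, with branches to prenylated proteins, dolichol and ubiquinone. When sterols in the endoplasmic reticulum run low, the escort protein SCAP carries the transcription factor SREBP2 to the Golgi, where it is cut and released to the nucleus to induce the genes of the pathway, whereas INSIG proteins hold SCAP back when sterols are plentiful. In the epidermis cholesterol is, with ceramides and free fatty acids, one of the lipids that seal the stratum corneum, and sebaceous glands secrete sterols and wax esters.

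After the cell filters 8875 wildtype and 8617 knockout cells remained, with a median of 4941 and 4992 unique molecular identifiers (UMIs, counted molecules) per cell. Eppk1 itself stood at 3647 CPM (UMIs of a gene per 1000000 UMIs of the cell type) in wildtype and 995 CPM in knockout interfollicular keratinocytes, a log2 ratio of -1.87, and at 717 and 30.9 CPM in sebaceous gland cells. Residual UMIs were therefore counted in the knockout library, and whether the probes lie inside the deleted stretch was not given in the sources used here. Cell types were named from marker genes: keratinocyte stages from Krt5 and Krt14 through Krt1 and Krt10 to Flg and Lce genes, sebaceous gland cells from genes such as Mgst1 and Scd3, 4 fibroblast groups called A (Pla1a, Efhd1, Ptx3), B (Tnmd, Masp1, Slit2), C (Cpz, Pla2g5, Fgfr4) and D (Angpt4, Myoc, C7), and myeloid cells comprising 2 macrophage clusters with Langerhans and dendritic cells. Both libraries held 1211 droplet barcodes in common. Such a barcode was carried by 1167 of the 8875 wildtype and 1183 of the 8617 knockout cells kept. Among endothelial cells it was carried by 51 of the 104 wildtype and 9 of the 60 knockout cells. Sub-clusters that mixed markers of different cell types were left out of the named types. So was 1 sub-cluster with sebaceous markers whose 54 cells all came from the knockout library, 46 of them with a droplet barcode that the wildtype library also held.

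To show the sequence in which the pathway genes share features, promoters were taken from RefSeq (build GRCm38.p6), where 22 of the 26 genes had an entry and Fdps, Fdft1, Sqle and Stard4 had none. In the 250 bases before the start, the sterol regulatory element TCACNCCAC, the type of site that SREBPs bind, was present on either strand in 1 of the 22 genes, Hmgcs1, against 1.22% of the 27025 genes with promoters of that length. A CCAAT box (CCAAT), to which the SREBP partner NF-Y binds, was found on either strand in 20 of the 22 genes, against 37.5% of those genes. A GC box (GGGCGG), a site of Sp factors, was likewise found in 20 of the 22 genes, against 35.4% of those genes. Ggps1 and Pmvk held no GC box, and their levels differed in opposite directions, with Ggps1 higher and Pmvk lower in the knockout epidermis. The 3 sequences that follow are the promoter of the 22 that held a sterol regulatory element, that of a sterol sensor gene with several GC boxes, and that of Ggps1. Each runs 5′ to 3′ on the strand of the gene, ends where the gene begins in the GENCODE or RefSeq annotation, whichever lies further upstream, and has CCAAT boxes, GC boxes and the sterol regulatory element in capitals. These motifs do not overlap each other in the 3 sequences.
Hmgcs1 (GRCm38.p6, chr13:119690101-119690350, plus strand): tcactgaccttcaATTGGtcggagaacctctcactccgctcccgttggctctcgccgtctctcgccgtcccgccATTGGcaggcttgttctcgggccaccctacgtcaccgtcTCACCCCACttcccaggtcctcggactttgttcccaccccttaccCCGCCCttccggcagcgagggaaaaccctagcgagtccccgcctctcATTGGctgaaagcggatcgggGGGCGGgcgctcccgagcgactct
Insig1 (GRCm38.p6, chr5:28071162-28071362, plus strand): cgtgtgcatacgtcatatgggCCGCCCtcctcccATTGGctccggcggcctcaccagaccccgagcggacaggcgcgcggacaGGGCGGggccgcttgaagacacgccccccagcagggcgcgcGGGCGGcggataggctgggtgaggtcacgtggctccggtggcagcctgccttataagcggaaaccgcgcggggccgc
Ggps1 (GRCm38.p6, chr13:14063489-14063738, minus strand): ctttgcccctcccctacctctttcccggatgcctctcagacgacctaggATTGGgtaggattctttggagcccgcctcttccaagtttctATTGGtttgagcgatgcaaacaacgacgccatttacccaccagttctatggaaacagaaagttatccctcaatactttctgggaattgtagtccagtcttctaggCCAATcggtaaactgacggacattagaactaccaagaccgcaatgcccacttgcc
The element of Hmgcs1 ended 128 bases before the start, and its printed stretch held 3 CCAAT boxes and 2 GC boxes. That of Insig1 held 1 CCAAT box and 3 GC boxes, and that of Ggps1 held 3 CCAAT boxes. A match of letters is a description of the reference and was not measured as binding here. Other forms of the sterol regulatory element and sites further upstream were not searched, so a gene without a match may still hold one. The shares given beside the pathway genes are over all genes with promoters, whether or not they are expressed in skin.

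In the wildtype library the pathway was most abundant in sebaceous gland cells and in spinous and granular keratinocytes. Summed over the 26 genes, the wildtype level was 12596 CPM in sebaceous gland cells, 6953 CPM in spinous and granular keratinocytes, 2626 CPM in spinous, 1946 CPM in basal and 1158 CPM in the latest, Lce-rich keratinocytes, and 969 CPM in fibroblasts. Of the 26 genes, 19 had their highest wildtype level in sebaceous gland cells. In 18 of these the Poisson intervals (95%, counting error only) lay apart from those of the next cell type. Each gene was ranked only over the cell types in which it had enough UMIs to be compared. For the 19 genes this ranged from 3 types for Mvd, 4 for Tm7sf2 and 5 for Acat2 to 23 for Insig1. How many of all genes were highest in sebaceous gland cells was not counted. Msmo1, the methyl sterol oxidase that removes methyl groups from the sterol nucleus, stood at 2499 CPM in wildtype sebaceous gland cells and at 652 CPM in spinous and granular keratinocytes. Acat2, a cytosolic thiolase at the entry of the pathway, stood at 383 against 23.1 CPM in the same cell types.

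Sc5d, the sterol desaturase that acts late in the pathway, had the opposite order. Its wildtype level was 425 CPM in spinous and granular keratinocytes and 7.90 CPM in sebaceous gland cells, its lowest value among the 16 cell types in which it could be compared. Sqle, the squalene epoxidase, was also higher in spinous and granular keratinocytes (626 CPM) than in sebaceous gland cells (567 CPM), with intervals that did not overlap. Dhcr7, the last reductase of one branch of the route, peaked at 558 CPM in the latest keratinocytes, above 364 CPM in the spinous and granular cells. Lbr, a nuclear envelope protein that is also a sterol reductase, was highest in proliferating keratinocytes at 330 CPM. Srebf2, which encodes SREBP2, was highest in Langerhans and dendritic cells at 441 CPM, and Ggps1, which makes geranylgeranyl diphosphate, differed by at most 3.32-fold between its highest and lowest cell type.

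**Figure D1:**
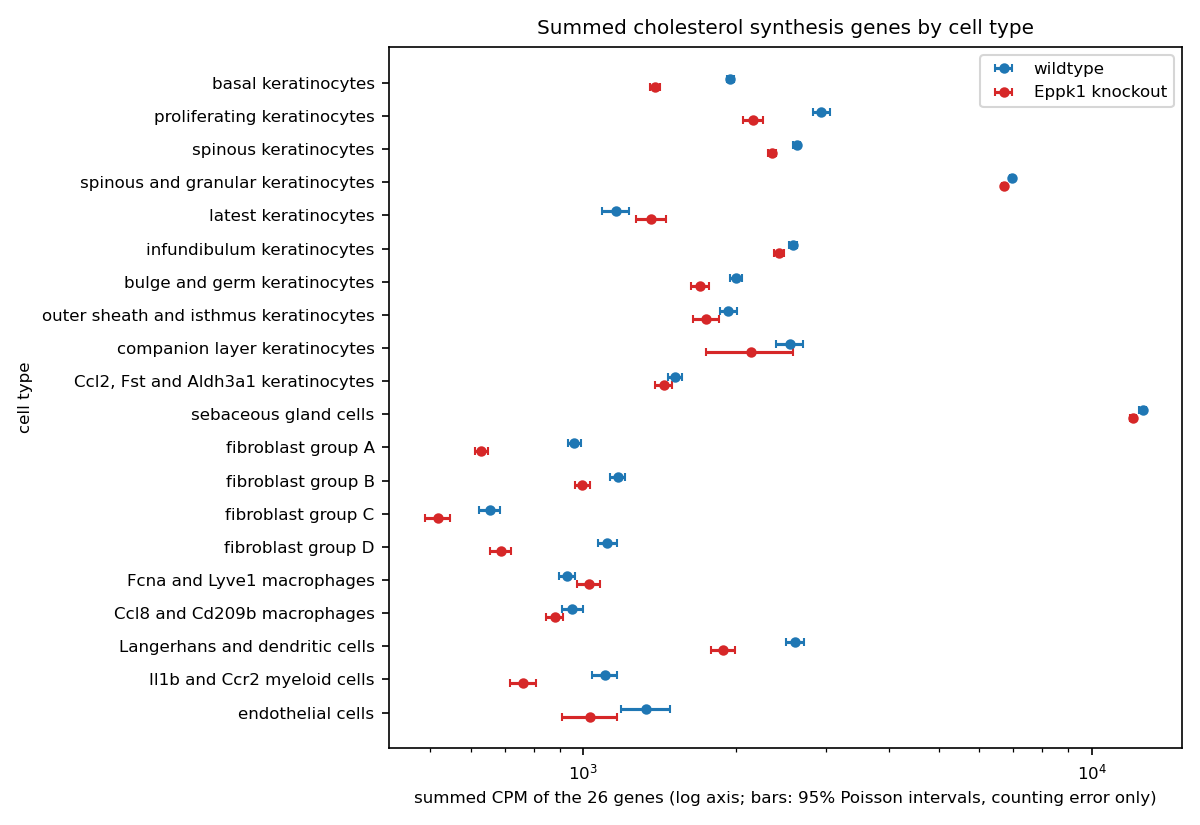
Summed level of the 26 genes in CPM on a log axis, for wildtype (blue) and Eppk1 knockout (red) in 20 cell types, with 95% Poisson intervals that cover counting error only. Sebaceous gland cells stood at 12596 and 12071 CPM and spinous and granular keratinocytes at 6953 and 6723 CPM, while basal keratinocytes (1946 and 1381 CPM) and fibroblast group D (1115 and 687 CPM) lay further apart.

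In interfollicular keratinocytes as a whole the pathway was lower in the knockout library. A gene was compared where both libraries together held at least 50 of its UMIs, which all 26 did, and the median log2 ratio of knockout over wildtype was -0.31, against 0.01 over all 10560 genes compared. Of the 26 genes, 24 had a ratio below 0, against 47.5% of all genes, 17 had -0.25 or less, against 13.5%, and 6 had -0.5 or less, against 3.94%, while 0 had 0.5 or more, against 3.66%. The 6 lower genes were Insig1, Lss, Idi1, Mvd, Tm7sf2 and Hsd17b7. The 2 genes above 0 were Ggps1 at 0.29 and Insig2 at 0.04. The cell makeup of this class differed between libraries, since spinous and granular cells made up 11.6% of wildtype and 8.33% of knockout interfollicular keratinocytes while holding 64.6% and 58.0% of the UMIs of the pathway. With the sub-clusters of both libraries weighted by their wildtype shares the median was -0.20 and 20 of the 26 genes were lower. The stages are therefore described one by one below.

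By role, all 6 enzymes up to isopentenyl units were lower in the knockout interfollicular keratinocytes, with a median of -0.34. Idi1, the isomerase that gives dimethylallyl diphosphate, had 78.8 CPM in wildtype and 52.7 CPM in knockout (log2 ratio -0.58, exact 95% interval of counting error -0.70 to -0.47), and Pmvk, the phosphomevalonate kinase, had the smallest difference at -0.25. Hmgcs1, the cytosolic HMG-CoA synthase, had 704 and 556 CPM (-0.34, -0.38 to -0.30), and Mvd, the mevalonate diphosphate decarboxylase, 14.3 and 9.86 CPM (-0.54). Fdps, the farnesyl diphosphate synthase, had 458 and 381 CPM (-0.26), whereas Ggps1 was higher, at 46.6 and 56.9 CPM (0.29, 0.16 to 0.41). These 2 prenyl enzymes thus pointed in opposite directions.

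The steps to lanosterol were lower in all 3 enzymes. Lss, the cyclase that closes the ring system, had 21.9 CPM in wildtype and 14.2 CPM in knockout (-0.62, -0.84 to -0.40), Sqle had 341 and 248 CPM (-0.46), and Fdft1, the squalene synthase, had 297 and 240 CPM (-0.31). On the route from lanosterol all 9 enzymes lay below 0, from Tm7sf2, a sterol reductase, at 10.9 and 7.52 CPM (-0.53) to Ebp, the sterol isomerase, at 30.8 and 30.1 CPM (-0.03). Cyp51, the lanosterol demethylase, had 339 and 253 CPM (-0.42), Hsd17b7, a ketoreductase, 50.4 and 35.5 CPM (-0.50), and Msmo1 319 and 245 CPM (-0.38). Dhcr7 (-0.07), Nsdhl (-0.12), Lbr (-0.11) and Sc5d (-0.22) made up the remainder.

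Among the regulators, Insig1, itself a target of SREBPs, had 117 CPM in wildtype and 75.1 CPM in knockout (-0.64, -0.74 to -0.54), the lowest ratio of all 26 genes in this class. Insig2, the second retention protein, had 61.9 and 63.6 CPM (0.04, -0.07 to 0.15). Srebf2 had 270 and 223 CPM (-0.28), Srebf1 37.2 and 32.9 CPM (-0.17) and Scap 80.0 and 74.9 CPM (-0.09). Stard4, a carrier that moves cholesterol between membranes, had 122 and 90.8 CPM (-0.43).

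**Figure D2:**
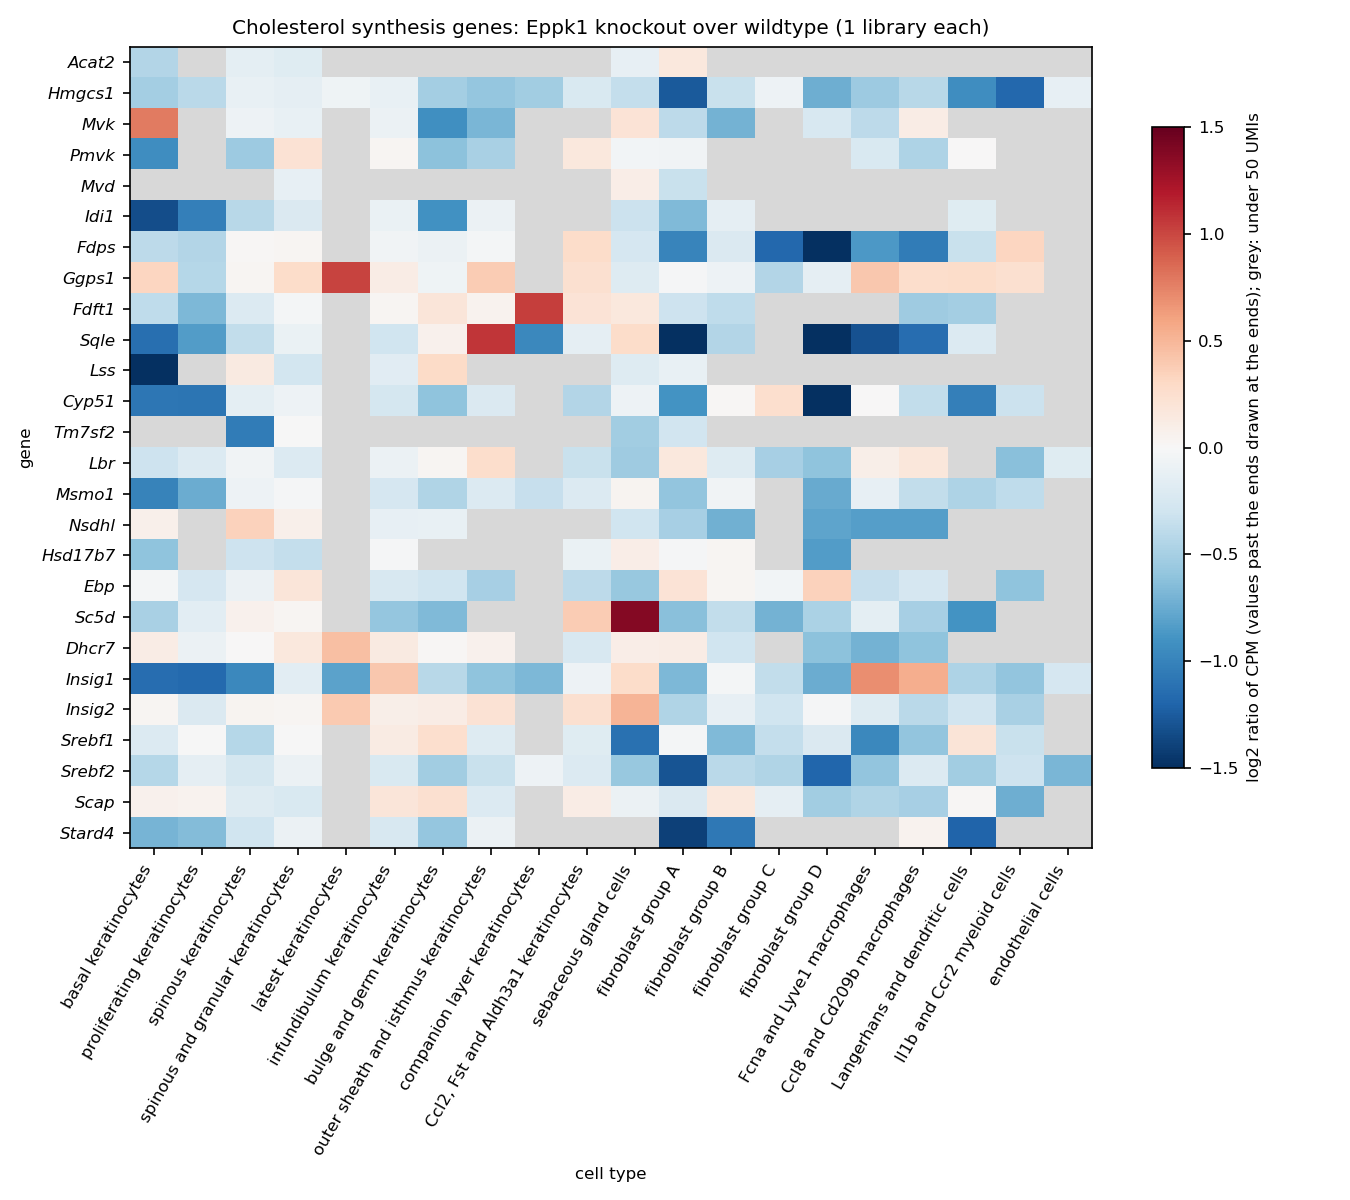
Log2 ratio of knockout over wildtype CPM for each of the 26 genes (rows) in 20 cell types (columns), blue for lower and red for higher in the knockout library, with grey where both libraries held under 50 UMIs. Blue cells prevail in basal and proliferating keratinocytes and in fibroblast groups A and D, and the spinous and granular column is pale, with 0 of its 26 genes at -0.5 or less.

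Among the epidermal stages, basal keratinocytes, the cells attached to the basement membrane, showed the wider differences. In them 24 of the 26 genes could be compared (Mvd and Tm7sf2 had too few UMIs), 18 had a ratio below 0, against 47.7% of all 8739 genes compared, and 10 had -0.5 or less, against 3.73%. At 0.5 or more was 1 gene, against 4.17%. The median was -0.43, against 0.01 for all genes, and the summed level was 1946 CPM in wildtype and 1381 CPM in knockout. Idi1 stood at 35.0 and 13.9 CPM (-1.33, -1.72 to -0.96), Insig1 at 42.4 and 19.2 CPM (-1.14, -1.48 to -0.82), and Sqle at 127 and 57.9 CPM (-1.13, -1.32 to -0.95).

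Each of these genes thus had less than 50% of its wildtype level in knockout basal cells, and the middle of the sterol route was similar. Cyp51 had 190 and 89.3 CPM (-1.09, -1.24 to -0.94) and Msmo1 113 and 56.4 CPM (-1.0, -1.20 to -0.81). Lss rested on 47 and 11 UMIs, with 6.37 and 2.01 CPM (-1.62, -2.76 to -0.70). The other 4 of the 10 were Pmvk (-0.93, from 75 and 29 UMIs), Stard4 (-0.70), Hsd17b7 (-0.60) and Hmgcs1, with 465 and 326 CPM (-0.51).

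Late on the route, Sc5d was also lower in basal cells, with 38.8 and 27.6 CPM (-0.49, -0.79 to -0.20), while Dhcr7 and Ebp had intervals that included 0. Dhcr7 had 37.2 and 40.2 CPM (0.11, -0.15 to 0.37), and Ebp 19 and 18.6 CPM (-0.03, -0.41 to 0.35). Insig2 (0.02), Scap (0.06) and Nsdhl (0.07) had intervals that included 0, as did Mvk, the mevalonate kinase, whose 0.78 rested on 25 and 32 UMIs. Ggps1 was higher at 64.1 and 80.4 CPM (0.33, 0.13 to 0.52). Srebf2 had 210 and 156 CPM (-0.43, -0.55 to -0.31).

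Of the 4 basal sub-clusters, the one led by Tnfsf18, Slc16a3 and Ch25h had a summed level of 2480 CPM in wildtype and 1490 CPM in knockout (-0.73, -0.80 to -0.67). The largest one, led by Has3, Adam8 and Ptgs2, had 1528 and 1286 CPM (-0.25, -0.31 to -0.19). A small sub-cluster led by Socs3 and Gna14 had 2783 and 1634 CPM (-0.77), and another led by Gbp2 and Cxcl9 had 1518 and 1259 CPM (-0.27). All 4 were thus lower in the knockout library, by amounts whose intervals did not overlap between the first and the second.

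Markers of other keratinocyte stages and cell types differed in both directions in the basal class. Infundibulum markers (7 genes, all 6 compared lower) summed to 1501 CPM in wildtype and 1252 CPM in knockout. Granular markers (9 genes, of which 4 of 8 compared were lower) summed to 196 and 186 CPM, spinous markers (3 of 8 lower) to 1370 and 1502 CPM, fibroblast markers (1 of 7 compared was lower) to 233 and 304 CPM, and the 10 sebaceous markers, none of which reached 50 UMIs and of which Awat2 and Dgat2l6 were at 0, to 5.29 and 12.6 CPM. Their part in the ratios was not tested. Median UMIs per cell were 4278 and 4050.

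Proliferating keratinocytes, 131 and 129 cells with Mki67 and Top2a, were close to basal cells in this respect. Of 18 genes compared, 17 were lower, against 52.0% of all genes, and 7 had -0.5 or less, against 8.58%. Cyp51 had 250 and 116 CPM (-1.10, -1.46 to -0.76), Sqle 200 and 111 CPM (-0.84), Msmo1 141 and 83.9 CPM (-0.74), and Fdft1 186 and 116 CPM (-0.67). Insig1 stood at 87.0 and 38.4 CPM (-1.17) from 81 and 32 UMIs. In this class fibroblast markers (8 genes, 0 of the 6 compared lower) were higher in the knockout library, with a sum of 179 and 615 CPM, and their part in the ratios was not tested.

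Spinous keratinocytes lay in between, with a median of -0.15 over 25 genes, against 0.00 for all genes. There 18 genes were lower, against 49.4% of all genes, and 3 had -0.5 or less, against 3.90%, namely Tm7sf2 from 38 and 16 UMIs, Pmvk from 84 and 51 UMIs, and Insig1. Insig1 had 50.1 CPM in wildtype and 25.6 CPM in knockout (-0.97, -1.27 to -0.68). Idi1 (-0.42) and Sqle (-0.37) were lower by smaller amounts than in basal cells, and Msmo1 had 149 and 141 CPM (-0.08, -0.22 to 0.06). In this class spinous markers (8 genes, 2 lower) summed to 30355 CPM in wildtype and 37468 CPM in knockout. Basal markers (8 genes, 7 lower) summed to 8471 and 7576 CPM. The part of these markers in the ratios and in the comparison of stages was not tested.

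In spinous and granular keratinocytes, the interfollicular cells with the most pathway UMIs, the summed levels of the libraries were close. The summed level was 6953 and 6723 CPM (-0.05, -0.07 to -0.03), the median over all 26 genes was -0.08, against -0.04 for all genes compared, and 18 genes were lower, against 58.1% of all genes. At -0.5 or less were 0 of the 26 genes, against 5.59% of all genes. Sqle stood at 626 and 586 CPM (-0.10), Cyp51 at 575 and 547 CPM (-0.07) and Msmo1 at 652 and 643 CPM (-0.02, -0.08 to 0.04). The lowest ratio was that of Hsd17b7 at 75.4 and 58.8 CPM (-0.36), and Dhcr7 was slightly higher at 364 and 405 CPM (0.16, 0.07 to 0.24). In this class granular markers (9 genes, 0 lower) summed to 24412 CPM in wildtype and 35060 CPM in knockout, and markers of the latest keratinocytes (8 genes, 0 of 7 compared lower) to 1814 and 3502 CPM. Their part in the ratios and in the comparison of stages was not tested.

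The increase from basal to spinous and granular cells was steeper in the knockout library. Of 24 genes measured in both stages, 19 were higher in spinous and granular cells with intervals apart in the wildtype, and 19 in the knockout. For 20 of the 24 the fold was larger in the knockout, and its median was 4.07 in wildtype and 5.91 in knockout. The folds were not counted over all genes. They are made from the same levels as the ratios of these stages above and are not a separate result. Sqle was 4.94-fold (4.61 to 5.30) higher in wildtype and 10.1-fold (9.01 to 11.4) higher in knockout spinous and granular cells than in basal cells, and Msmo1 5.76-fold and 11.4-fold. Cyp51 was 3.03-fold and 6.12-fold higher, while Dhcr7 was 9.77-fold and 10.1-fold higher, with intervals that overlapped between libraries. Ggps1 ran against this order, with 0.42 and 0.41 times its basal level.

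**Figure D3:**
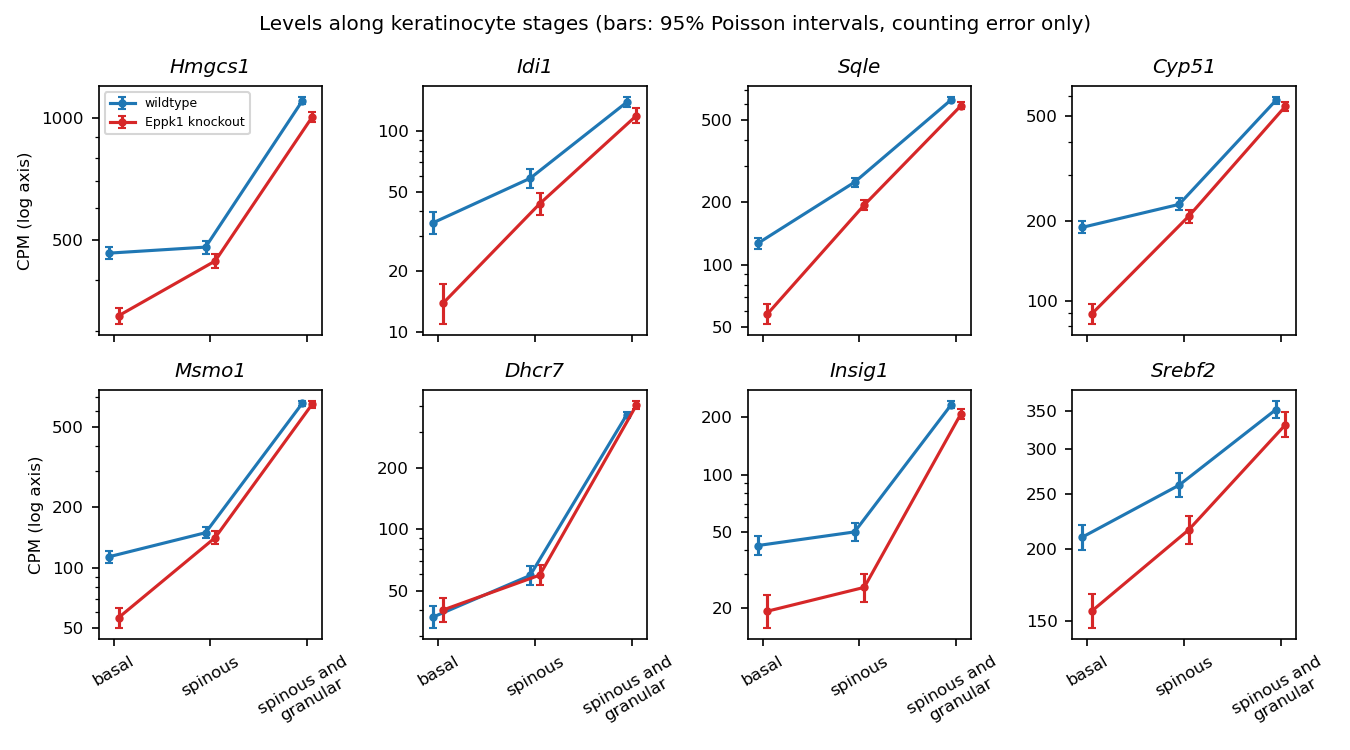
Levels of 8 genes in CPM on a log axis in basal, spinous, and spinous and granular keratinocytes, wildtype in blue and knockout in red, with 95% Poisson intervals that cover counting error only. For Idi1, Sqle, Cyp51, Msmo1 and Insig1 the lines are furthest apart in basal or spinous cells and come together in spinous and granular cells, whereas the lines of Dhcr7 nearly coincide.

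In the latest keratinocytes (49 and 34 cells), where the summed level had dropped again, 5 genes could be compared. Dhcr7 had 558 CPM in wildtype and 763 CPM in knockout (0.45, 0.27 to 0.64), and Ggps1 32.6 and 66.3 CPM (1.02, 0.30 to 1.76) from 29 and 41 UMIs. Hmgcs1 had 276 and 264 CPM (-0.07), while Insig1 (-0.81) and Insig2 (0.39) had intervals that included 0. Below 0 were thus 2 of 5 genes, against 43.0% of all genes.

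**Figure D4:**
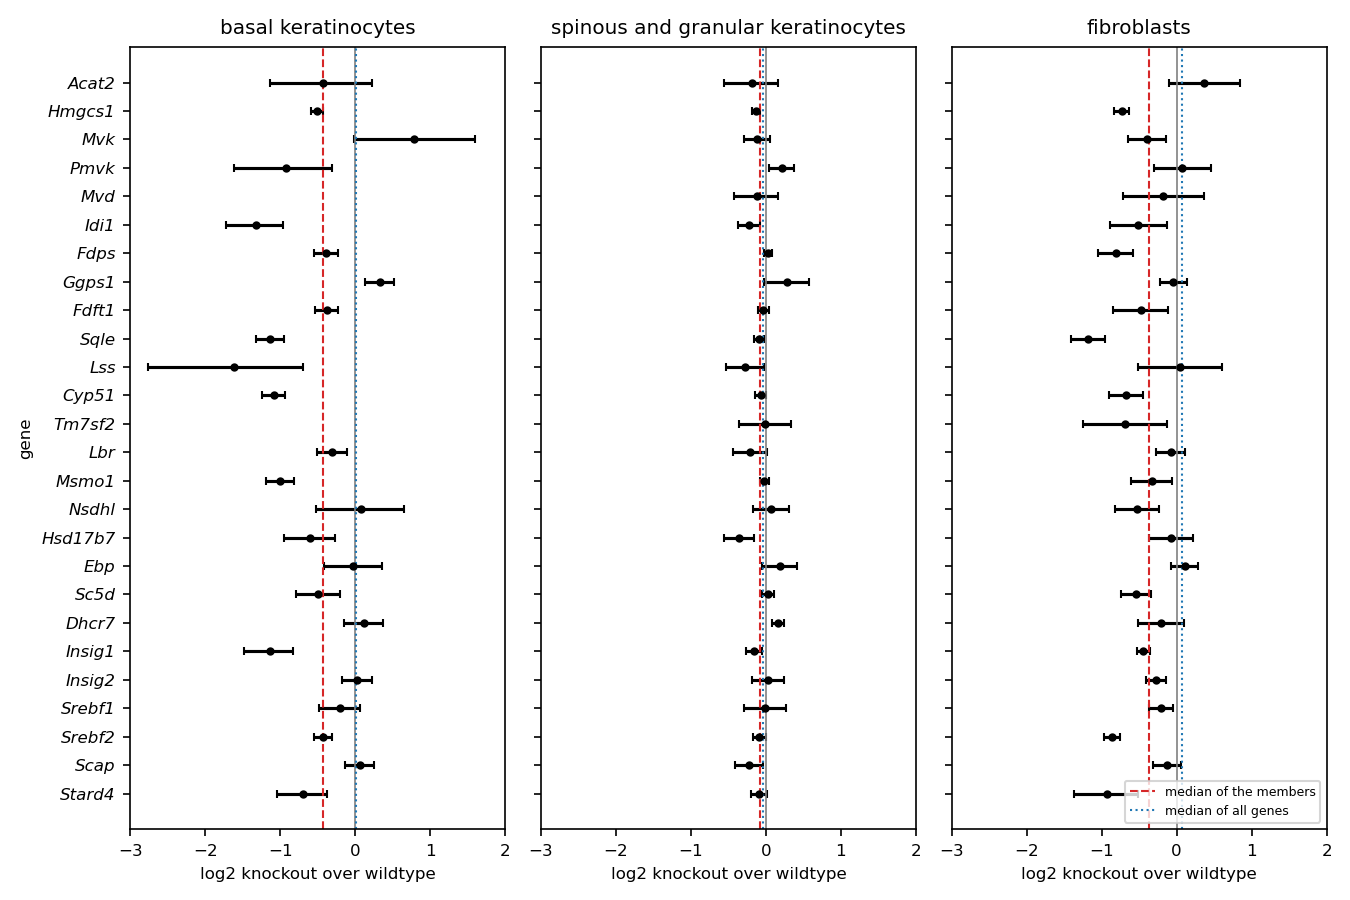
Log2 ratio of each gene with its exact 95% interval of counting error in basal keratinocytes, spinous and granular keratinocytes and fibroblasts, with the median of the 26 genes (red dashes) and of all genes compared (blue dots). The members' median was -0.43 in basal keratinocytes, -0.08 in spinous and granular keratinocytes and -0.37 in fibroblasts.

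In hair follicle keratinocytes most of the genes lay below 0 by small amounts. Over 1643 wildtype and 949 knockout cells the median was -0.15, against -0.02 for all genes, and 17 of 25 genes were lower, against 54.5% of all genes. At -0.5 or less was 1 gene, against 5.70% of all genes, namely Acat2 from 83 and 26 UMIs. Hmgcs1 had 432 and 351 CPM (-0.30), Sc5d 56.2 and 41.8 CPM (-0.42), and Srebf2 233 and 189 CPM (-0.30). Fdft1 (0.11), Dhcr7 (0.19) and Insig2 (0.20, 0.08 to 0.31) were above 0. Granular markers (9 genes, 1 lower) summed to 5768 CPM in wildtype and 11029 CPM in knockout follicle cells, and spinous markers (8 genes, 0 lower) to 14955 and 18368 CPM. Within the infundibulum the granular markers (2 of 9 lower) stood at 11285 and 18847 CPM, and the part of these markers in the ratios was not tested.

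The bulge and germ, which hold the follicle stem cells, had a median of -0.21 and 8 of 22 genes at -0.5 or less, against 6.81% of all genes. The larger sub-cluster, led by Krt24 and Angptl7 (444 and 222 cells), had 0 of 20 genes at -0.5 or less and a summed ratio of -0.14 (-0.23 to -0.05). The other, led by Fgf18 and Ramp1 (238 and 152 cells), had 6 of 14 and -0.41 (-0.53 to -0.30). Shares over all genes were not counted by sub-cluster. In the whole class Hmgcs1 had 443 and 312 CPM (-0.51, -0.67 to -0.35), Cyp51 82.3 and 54.1 CPM (-0.60), Idi1 36.1 and 19 CPM (-0.91) and Srebf2 201 and 140 CPM (-0.52). Unlike in basal epidermis, Sqle had 204 and 212 CPM there (0.06, -0.15 to 0.27). The infundibulum, the upper follicle, had a median of -0.09 and 1 of 23 genes at -0.5 or less, against 4.24% of all genes, which was Sc5d with 92.1 and 61.5 CPM (-0.58), while Insig1 was higher, at 49.3 and 65.3 CPM (0.41, 0.11 to 0.70).

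In the outer sheath and isthmus Sqle was also higher, with 63.1 CPM in wildtype and 133 CPM in knockout (1.07, 0.63 to 1.51) from 85 and 91 UMIs, while Hmgcs1 had 400 and 268 CPM (-0.58). The median over 19 genes was -0.20, and 3 genes lay at -0.5 or less, against 8.30% of all genes. The companion layer held 12 knockout cells, and 6 genes could be compared, among them Hmgcs1 (-0.52, -1.29 to 0.10) and Fdft1 (1.03, 0.32 to 1.65). Keratinocytes led by Ccl2, Fst and Aldh3a1, which the markers did not name, had a median of -0.12 and 0 of 18 genes at -0.5 or less, against 5.30% of all genes.

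In sebaceous gland cells, where the summed level of these genes was highest, no common direction was seen. The median was -0.09, against -0.17 for all 6999 genes compared, and 15 of 25 genes were lower, against 66.0% of all genes. With the libraries scaled by TMM or centred on the median of all genes the median turned to 0.079 and 0.072. Msmo1 had 2499 and 2579 CPM (0.05, -0.02 to 0.11), Cyp51 892 and 848 CPM (-0.07) and Sqle 567 and 687 CPM (0.28, 0.15 to 0.41), whereas Hmgcs1 had 1693 and 1322 CPM (-0.36).

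Of the regulators in the gland, Srebf1, which encodes SREBP1, the factor that mainly drives fatty acid synthesis, had 210 CPM in wildtype and 96.6 CPM in knockout (-1.12, -1.40 to -0.85), and Srebf2 had 329 and 221 CPM (-0.57, -0.77 to -0.38). Insig2 was higher, at 462 and 657 CPM (0.51, 0.37 to 0.65), as was Insig1 at 626 and 760 CPM (0.28), while Scap had 170 and 160 CPM (-0.09, an interval that included 0). Lbr (-0.54), Ebp (-0.57) and Tm7sf2 (-0.52) made up, with Srebf1 and Srebf2, the 5 of 25 genes at -0.5 or less, a share close to the 23.2% of all genes.

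At 0.5 or more were Insig2 and Sc5d, 2 of 25 genes, likewise a share close to the 6.42% of all genes. Sc5d had 7.90 and 21.2 CPM (1.38, 0.43 to 2.54) from 11 and 39 UMIs. The knockout gland cells held more UMIs (median 12762 against 6109), more spinous keratinocyte markers (4511 against 2428 CPM summed over 8 genes, 2 of 7 compared lower) and more macrophage markers (172 against 34.5 CPM over 9 genes, 0 of 3 compared lower), and the part of these in the ratios was not tested. Fibroblast markers (8 genes, 5 of 7 compared lower) summed to 1384 CPM in knockout and 2118 CPM in wildtype gland cells.

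In fibroblasts the pathway had a low level and was lower in the knockout library. Over 1673 wildtype and 2635 knockout cells the median was -0.37, against 0.07 for all 11381 genes compared. Of the 26 genes, 22 were lower, against 39.7% of all genes, 15 had -0.25 or less, against 14.7%, and 10 had -0.5 or less, against 6.18%, while 0 had 0.5 or more, against 9.62%. The summed level was 969 CPM in wildtype and 704 CPM in knockout (-0.46, -0.50 to -0.42).

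Sqle had 36.4 CPM in wildtype and 16 CPM in knockout fibroblasts (-1.18, -1.41 to -0.96), the lowest ratio. Stard4 followed with 9.22 and 4.82 CPM (-0.93) from 113 and 80 UMIs, Srebf2 with 131 and 72.5 CPM (-0.86, -0.97 to -0.75), and Fdps with 29.1 and 16.6 CPM (-0.81, -1.04 to -0.58). These genes belong to different steps of the pathway, from the farnesyl substrate and squalene to the carrier and the SREBP2 factor itself.

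Hmgcs1 had 150 and 90.2 CPM (-0.73, -0.83 to -0.63), Cyp51 28.9 and 18.1 CPM (-0.67), Sc5d 35.3 and 24.2 CPM (-0.54), Nsdhl, a sterol dehydrogenase, 16.1 and 11.2 CPM (-0.53), and Insig1 164 and 121 CPM (-0.44). Tm7sf2 (-0.69) and Idi1 (-0.51) completed the 10. Ratios above 0 were given by Acat2 (0.36), Pmvk (0.08), Lss (0.04) and Ebp (0.11), each with an interval that included 0.

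By group, the median was -0.36 in group A, -0.21 in group B, -0.36 in group C and -0.67 in group D, and the share of genes at -0.5 or less was 10 of 26 in group A (against 10.7% of all genes), 4 of 21 in group B (6.92%), 2 of 12 in group C (11.3%) and 12 of 18 in group D (6.17%). In group D Cyp51 had 58.0 CPM in wildtype and 13.5 CPM in knockout (-2.09, -2.74 to -1.51) from 101 and 31 UMIs, Sqle 45.3 and 13.5 CPM (-1.74), Fdps 29.8 and 10.4 CPM (-1.503), Srebf2 184 and 80.3 CPM (-1.19), Hmgcs1 152 and 91.6 CPM (-0.73) and Insig1 160 and 95.5 CPM (-0.74).

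In group A Sqle had 29.9 and 5.36 CPM (-2.46, -3.01 to -1.97), Hmgcs1 161 and 67.3 CPM (-1.26), Srebf2 128 and 52.0 CPM (-1.29), Fdps 27.1 and 13.7 CPM (-0.99), Cyp51 25.7 and 13.8 CPM (-0.90) and Insig1 134 and 84.2 CPM (-0.67). Sc5d (-0.63) and Msmo1 (-0.59) were lower as well. Group A consisted of 2 sub-clusters, 1 of which held 243 wildtype and 827 knockout cells, and the summed ratio was -0.55 in that one and -0.64 in the other (271 and 275 cells). When the libraries were clustered without integration, the sub-clusters with group A markers held 53 wildtype and 884 knockout, 462 and 15, and 9 and 215 cells, and the one of mostly wildtype cells was led by Rsad2, Plscr2, Cxcl2, Ifit3 and Isg15, among them interferon-induced genes. Most group A cells of the libraries were thus apart in that clustering, and its part in the ratios of group A was not tested. Srebf1 stood at 49.96 and 31.4 CPM (-0.67) in group B and Fdps at 21.3 and 9.26 CPM (-1.18) from 53 and 22 UMIs in group C.

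Genes listed as markers of other cells were also counted in fibroblasts. Basal keratinocyte markers (8 genes, 5 of 7 compared lower) summed to 58.6 CPM in wildtype and 40.6 CPM in knockout, sebaceous markers (10 genes, 1 of 3 compared lower) to 353 and 298 CPM, and adipocyte markers (6 genes, 3 of 3 compared lower) to 57.6 and 22.8 CPM. Monocyte markers (6 genes, with 1 compared) summed to 1656 and 740 CPM. Their part in the ratios was not tested.

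In myeloid cells 22 of 25 genes were lower, against 61.2% of all genes, with a median of -0.35 against -0.09, and 7 had -0.5 or less, against 13.0%. Hmgcs1 had 145 CPM in wildtype and 91.5 CPM in knockout (-0.67, -0.83 to -0.50), Cyp51 47.1 and 30.8 CPM (-0.61), Fdps 49.0 and 32.6 CPM (-0.59), Dhcr7 24.4 and 16.2 CPM (-0.59) and Sqle 44.7 and 30.8 CPM (-0.54). Nsdhl (-0.78) and Hsd17b7 (-0.53, an interval that included 0) were the other genes of this size. The class held more wildtype than knockout macrophage markers (9 genes, 6 lower, 23700 and 18222 CPM), and their part in the ratios was not tested. The Ccl8 and Cd209b cluster, with 326 of 718 wildtype and 635 of 977 knockout cells, took a larger share of the class in the knockout. With the clusters of both libraries weighted by their wildtype shares the median was -0.26, and 18 of 25 genes were lower.

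Insig1, in contrast, was higher in the myeloid class, with 267 and 338 CPM (0.34, 0.24 to 0.44). It had 342 and 555 CPM (0.70, 0.56 to 0.84) in macrophages with Fcna and Lyve1 and in those with Ccl8 and Cd209b 198 and 290 CPM (0.54, 0.37 to 0.72), but 170 and 124 CPM (-0.46) in Langerhans and dendritic cells. The Fcna and Lyve1 macrophages had a median of 11821 UMIs per wildtype and 5697 per knockout cell, and the median ratio of all genes was -0.25 there. Without integration of the libraries, the macrophage cluster led by Fcna and Lyve1 held 232 wildtype and 7 knockout cells, and the part of this in the Insig1 ratio was not tested. Hmgcs1 was lower in both macrophage clusters (-0.54 and -0.42), as was Sqle (-1.31 from 51 and 9 UMIs, and -1.14 from 60 and 40 UMIs). In the Fcna and Lyve1 macrophages 14 of 18 genes were lower, beside 5293 of all 7615 genes. Their summed level was higher in the knockout, at 928 and 1025 CPM (0.14, 0.05 to 0.24). In the Ccl8 and Cd209b macrophages 15 of 20 genes were lower, beside 5066 of all 8459 genes. The summed level there was 952 and 878 CPM (-0.12, -0.20 to -0.03).

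Langerhans and dendritic cells (147 and 114 cells) had 12 of 16 genes lower, against 53.9% of all genes, and 6 at -0.5 or less, against 8.18%. Hmgcs1 had 492 and 257 CPM (-0.93, -1.19 to -0.68), Cyp51 186 and 91.4 CPM (-1.02, -1.46 to -0.60) and Srebf2 441 and 307 CPM (-0.52, -0.77 to -0.28). Basal keratinocyte markers (8 genes, 4 lower) summed to 2880 CPM in wildtype and 3429 CPM in knockout Langerhans and dendritic cells. Their part in the ratios was not tested. In cells with Il1b and Ccr2, which the markers did not name and which the myeloid class did not include, 10 of 12 genes were lower, but so were 81.2% of all genes there. Their Hmgcs1 level was 107 and 47.1 CPM (-1.18), that of Lbr 115 and 74.2 CPM (-0.63) and that of Insig1 201 and 134 CPM (-0.59).

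In endothelial cells 4 of the 26 genes reached 50 UMIs, and all 4 lay below 0, against 47.2% of all genes, each with an interval that included 0. Srebf2 had 129 and 79.5 CPM (-0.69, -1.59 to 0.15) from 32 and 20 UMIs, Hmgcs1 190 and 175 CPM (-0.12), Insig1 109 and 91.5 CPM (-0.25) and Lbr 117 and 103 CPM (-0.18). For these single genes a difference was not detectable at this depth. The sum over the 26 genes was 1327 CPM in wildtype and 1030 CPM in knockout (-0.36, -0.61 to -0.13), beside basal keratinocyte markers (8 genes, all 7 compared lower) at 5885 and 2366 CPM, whose part in it was not tested. Without the cells that shared a droplet barcode, 1 gene remained to be compared, with a ratio of 0.12.

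Across 21 finer types of keratinocytes, fibroblasts and immune cells, some genes kept their direction and others did not. Msmo1 was lower in all 16 of these types in which it could be compared, Idi1 in 10 of 10, Hmgcs1 in 19 of 20, Srebf2 in 18 of 20, Stard4 in 10 of 11 and Insig1 in 18 of 21. Ggps1 was lower in 7 of 18, Dhcr7 in 6 of 15, Insig2 in 9 of 17 and Scap in 9 of 16. Ratios near 0 are included, such as -0.02 for Msmo1 in spinous and granular keratinocytes. Sebaceous gland cells, where Msmo1 was not lower, are left out. Such counts over types were not made for all genes. Of all genes compared, 4051 of 10089 lay below 0 in fibroblast group A and 5106 of 6289 in Il1b and Ccr2 myeloid cells. The types share a single library per genotype and are not independent of each other. With the sebaceous and endothelial cells added, 15 genes had -0.25 or less in one type and 0.25 or more in another, and 6 of them, Fdft1, Sqle, Sc5d, Dhcr7, Insig1 and Insig2, had such a pair of types in which both intervals lay off 0. Pairs of this kind were not counted over all genes. Of 44 values of 0.5 or more in size that rested on at least 200 UMIs, 41 were lower and 3 higher in the knockout, the latter being Insig1 in both macrophage clusters and Insig2 in sebaceous gland cells. The split over all genes at this rule was not counted. Among all genes compared it differed between types. In Fcna and Lyve1 macrophages 2342 had -0.5 or less and 576 had 0.5 or more, and in fibroblast group A 1081 and 1677.

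Srebf2 lies on chromosome 15 (GRCm38, chr15:82147181-82205379, plus strand), 6.03 Mb from Eppk1 (chr15:76101481-76120195, minus strand), and Sqle lies 16.8 Mb from Eppk1 on the same chromosome (chr15:59315077-59331192, plus strand). The other 24 genes lie on other chromosomes. Sequence that stays linked to a targeted locus in a backcross and the absence of Eppk1 itself cannot be told apart in these data.

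Per cell, the differences in basal keratinocytes, in spinous and granular keratinocytes and in fibroblasts were also seen at equal depth. Each cell was thinned to 2000 UMIs, shallower cells being left out (223 wildtype and 212 knockout basal cells). A wildtype basal keratinocyte then held a mean of 4.04 and a median of 3 pathway UMIs, and a knockout one a mean of 2.75 and a median of 2. Spinous and granular cells held means of 13.8 and 12.7, and fibroblasts 1.90 and 1.43. In sebaceous gland cells the means were 18.5 and 19.9 and the medians 12 and 20, so that the medians were further apart than the means. The summed CPM of the gland had been lower in the knockout. So had that of the infundibulum, where the thinned means were 4.60 in wildtype and 4.68 in knockout.

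Other genes tied to the pathway were followed as lists in interfollicular keratinocytes, beside the 47.5% of all genes that were lower there. Of 8 genes outside the 26 that respond to SREBP2, 6 were lower (median -0.16), from Tmem97, a sterol-binding membrane protein, at 20.6 and 16.2 CPM (-0.35, -0.56 to -0.13) to Acss2, an acetyl-CoA synthetase, at 0.09. Por, the reductase that passes electrons to CYP51 and squalene epoxidase, had 154 and 128 CPM (-0.26, -0.34 to -0.19). Of 9 genes for SREBP processing and INSIG turnover 4 were lower (median 0.02), from Faf2 (-0.26) to Mbtps1, the protease that makes the first cut in SREBPs (0.07).

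Fatty acid synthesis targets of SREBP1 were close to level, with 5 of 8 lower and a median of -0.07, from Fasn, the fatty acid synthase, at 179 and 162 CPM (-0.14) to Scd2 (0.19). Of 7 LXR targets and efflux genes 2 were lower and the median was 0.17. Scarb1, a lipoprotein receptor, had 4.06 and 5.83 CPM (0.52, 0.11 to 0.94) and Abca1, the cholesterol efflux transporter, 15.4 and 20.1 CPM (0.38, 0.17 to 0.60), while Nr1h2, which encodes an LXR itself, was at -0.10. The median of this list lay above 0, but 2 of its 7 genes lay below, against 47.5% of all genes. No common direction was read from so few genes.

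Of 9 storage, lysosomal and transport genes 3 were lower (median 0.12), from Vldlr (-0.62, an interval that included 0) to Gramd1b, a carrier of cholesterol from the plasma membrane, at 3.12 and 5.66 CPM (0.86, 0.41 to 1.31). Of 11 genes of isoprenoid branches and prenyl transfer 8 were lower (median -0.11), from Pdss2 (-0.41) to Pdss1 (0.19), both with intervals that included 0. Of 3 sterol modification genes 2 were lower, from Cyp27a1 (-0.22) to Ch25h (0.13).

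In fibroblasts 7 of the 8 SREBP2-responsive genes outside the 26 were lower (median -0.23), against 39.7% of all genes, and 3 of 9 processing genes were (median 0.14). In myeloid cells 5 of 7 SREBP2-responsive genes were lower (median -0.51), against 61.2% of all genes, and 9 of 10 fatty acid synthesis targets were (median -0.29).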

How the data were processed

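The deposited files held raw counts of UMIs per gene and cell, which the authors had made with Cell Ranger (8.0.1 in the file header) against mm10 from probe-based libraries of fixed cells, 1 library per genotype. The 26 genes and all other lists were chosen with earlier results of these data known. The filters required a UMI total between 200 and 45000, between 100 and 7500 detected genes, and a mitochondrial share no higher than 10%. Then 13 mitochondrial genes were removed, and cells were clustered in Seurat 5.3.0 (R 4.3.3; 2000 variable genes, 50 components, resolution 0.5) into 24 clusters, with 17 keratinocyte and 9 fibroblast sub-clusters. Names came from listed markers, but the rule that turned marker counts into names was set after the clusters had been seen. No doublets were removed; an alternative dropped the highest 5% of Scrublet scores (scanpy 1.11.5).

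Raw counts were summed per cell type and library and scaled to CPM, and the log2 ratio of knockout over wildtype was taken with 0.5 UMI added to each count. A gene was compared at 50 or more UMIs in both libraries together. Intervals (95%, exact Poisson for a level, exact binomial for a ratio; scipy 1.17.1) cover counting error only and not the spread between mice, so sizes of 0.25 and 0.5 were used in place of a test. Total depth was 77638793 UMIs in 9179 wildtype and 65118304 in 8811 knockout cells. On simulated data for interfollicular keratinocytes (10560 genes), 200 of 200 changed genes were recovered, and 95.2% of intervals held the true value. The counts were drawn as Poisson, as the intervals assume. The changed genes were all set to 1 size, larger than any ratio of the members in this class, so recovery and coverage were largely given by the setting. Of the unchanged genes, 1.86% lay past the size used. Recovery near sizes of 0.25 and 0.5 and the spread between mice were not tested. Genes were named if they were members, or the lowest and highest of each other list in interfollicular keratinocytes. Por was named after its value was seen, and Abca1 was also named outside this rule. Alternatives included TMM scaling (edgeR 4.0.16), and 6 of them were added after seeing the data.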

Additional observations from a re-analysis of the deposited data

Results flagged for a closer look

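In 3 genes the ratio of knockout over wildtype had opposite signs in a pair of broad cell classes, with a size of at least 0.25 and at least 200 UMIs in each. With 1 mouse per genotype the difference was not tested in any of them. How many of all genes met this rule was not counted. In sebaceous gland cells 2938 of all 6999 genes compared had -0.25 or less and 1066 had 0.25 or more. Sqle, the squalene epoxidase, had a log2 ratio of -1.18 (-1.41 to -0.96) in fibroblasts and 0.28 (0.15 to 0.41) in sebaceous gland cells. Insig1, which retains SCAP in the endoplasmic reticulum, had -0.64 (-0.74 to -0.54) in interfollicular keratinocytes and 0.34 (0.24 to 0.44) in myeloid cells. Its relative Insig2 had -0.28 (-0.41 to -0.14) in fibroblasts and 0.51 (0.37 to 0.65) in sebaceous gland cells. These 6 ratios all had intervals of counting error off 0. Sc5d, with -0.54 (-0.74 to -0.34) in fibroblasts and 1.38 (0.43 to 2.54) in sebaceous gland cells, had too few UMIs there (11 and 39) to count among them.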

How the results depend on the processing

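No paired analysis was possible because each genotype was 1 library. For the same reason no replicate could be left out. The median ratio of the pathway stayed below 0 in all alternatives run for interfollicular keratinocytes (14 alternatives, -0.41 to -0.20), hair follicle (13, -0.21 to -0.08), fibroblasts (14, -0.43 to -0.21) and myeloid cells (12, -0.64 to -0.26). In interfollicular keratinocytes, whose stage makeup differed between libraries, it was -0.41 as a mean over cells. With sub-clusters weighted by wildtype shares it was -0.20, and 20 of 26 genes were lower. In sebaceous gland cells it turned to 0.079 with TMM scaling, 0.072 when centred on all genes, 0.10 as a mean over cells (9 genes lower) and 0.22 when thinned to 2000 UMIs (6 of 21 genes lower). The cause was not tested. In endothelial cells, with few UMIs, it was 0.26 at resolution 1 and 0.12 without shared droplet barcodes, each from 1 gene (0 lower), while 2 of 2 genes were lower without high Scrublet scores, 1 of 2 in cells with at least 1000 UMIs and 500 genes, and 15 of 18 at a minimum of 10 UMIs. Not run, for lack of genes or of sub-clusters, were endothelial cells at 200 UMIs, thinned or without integration, and weighting in sebaceous and endothelial cells.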

Other observations

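In sebaceous gland cells the fatty acid synthesis targets of SREBP1 had 0 of 7 genes lower in the knockout library, against 66.0% of all genes, and a median of 0.17, while Srebf1 itself stood at 210 and 96.6 CPM. Of 4 LXR targets and efflux genes 3 were lower there (median -0.40), a share near that of all genes. In fibroblasts, where the cholesterol genes were lower, 3 of 11 genes of isoprenoid branches and prenyl transfer were lower (median 0.16), against 39.7% of all genes. These values rest on 1 library per genotype and were not tested.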
